A study of Homo sapiens with 6 samples.

Results

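The genes described here are 9 transcription factors and inhibitors that carry or restrain interferon and cytokine signals: STAT2, STAT3, IRF1, IRF2, IRF7, IRF9, BATF2, SOCS1 and SOCS3. They were chosen by symbol, and all 9 were found once in each count table, among 37493 gene identifiers. The study reduced PPARG, a nuclear receptor that activates lipid genes, with a small interfering RNA (siPPARG) in the human esophageal adenocarcinoma lines Eso26 and OE33, and sequenced RNA. The controls received a non-silencing siRNA, and the transfection reagent Lipofectamine RNAiMAX was used throughout, so all 4 RNA libraries come from transfected cells. Eso26 cells grew in RPMI-1640 medium and OE33 cells in DMEM, which means that line and medium cannot be told apart. Each of the 4 groups (Eso26 control, Eso26 siPPARG, OE33 control, OE33 siPPARG) has 1 count column, although the design text speaks of triplicates. Sources used here do not give the siPPARG sequence, the number of siRNAs or the time after transfection.

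Interferons bind receptors whose JAK kinases phosphorylate STAT proteins. STAT2 acts with IRF9 in the complex ISGF3, which binds interferon-stimulated response elements (ISRE), while STAT dimers bind gamma-activated sites (GAS). IRF1 activates and IRF2 mostly represses at related elements, IRF7 drives the interferon genes themselves, and BATF2 is an interferon-inducible partner of AP-1 and IRF proteins. STAT3 answers mainly to cytokines of the IL-6 family, and SOCS1 and SOCS3 bind receptor complexes and end the signal.

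PPARG was the check of the labels, and it was far lower after siPPARG in OE33 but not detectably so in Eso26. OE33 held 2156 counts in the control and 313 in siPPARG, a ratio of 0.136 (95% counting interval 0.121 to 0.154). Eso26 held 259 and 201 counts, a ratio of 0.850 (interval 0.704 to 1.03), which includes no change. Directions given for Eso26 therefore refer to the library labelled siPPARG. In OE33, loss of PPARG and a reaction of the cells to this siRNA cannot be told apart. Library totals ran from 16866996 to 23019840 counts, and the epithelial markers EPCAM, CDH1, KRT8, KRT18 and KRT19 were present in all 4 libraries, with a summed level of 4627 to 8665 CPM (counts per 1000000 counts of the scaled library). Of 7 immune cell markers, between 1 and 5 were at 0 counts in each library and their summed level was 0.902 to 6.10 CPM, with CD3E at 0 in all libraries and the pan-leukocyte gene PTPRC at 0 in both controls. In OE33 control and siPPARG the summed immune level was 5.24 and 6.10 CPM, of which CD14 gave 4.95 and 5.26. For 5 fibroblast markers the sum was 3.64 and 5.04 CPM, of which COL1A1 gave 3.575 and 4.926. For 3 endothelial markers it was 0.417 and 0.168 CPM. In Eso26 control and siPPARG the fibroblast sum was 6.67 and 8.26 CPM and the endothelial sum 2.75 and 3.94 CPM. The part of these markers in the results below was not tested. In bulk RNA, fewer cells expressing a gene and less RNA per cell cannot be told apart.

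All intervals on counts below are 95% intervals for counting error in 1 library per group; they do not cover the spread between cultures. CPM values are scaled with TMM factors over the 4 libraries, and they are compared only within a gene, because they are not divided by gene length. The ratio of siPPARG to control is from counts scaled within the pair. A gene was kept in a comparison when either of its libraries reached 5 CPM, and 2-fold was the size threshold.

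The promoters of 7 of the 9 genes were in the RefSeq promoter table (GRCh38.p14, 250 bases before to 50 after a start); IRF2 and IRF7 had no entry. They are shown because STAT2, IRF7 and BATF2 were the members that were higher together in OE33, and because the ISRE and GAS letters are those that the proteins of this pathway read. Both strands were searched for the ISRE core, which is GAAA, any 2 bases, then GAAA, and for the GAS core, which is TTC, any 3 bases, then GAA; the latter is its own reverse complement. Windows of 3 genes held a match, and no window held both. Of all 35116 promoters in the table, 3.57% held the ISRE core and 7.66% the GAS core. The stretches around the matches follow 5′ to 3′ on the strand of the gene, with the match in capitals.
IRF1 (chr5:132490859-132490927, minus strand, GAS): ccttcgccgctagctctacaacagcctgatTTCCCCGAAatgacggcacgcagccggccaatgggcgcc
IRF9 (chr14:24161172-24161240, plus strand, GAS): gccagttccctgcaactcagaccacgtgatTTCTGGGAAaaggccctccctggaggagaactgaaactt
SOCS1 (chr16:11256278-11256347, minus strand, ISRE): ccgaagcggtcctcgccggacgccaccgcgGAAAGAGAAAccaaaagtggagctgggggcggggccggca

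The 250 bases upstream of the listed starts of STAT2 and BATF2, the members past 2-fold in OE33, held neither core in these letters and are printed in lower case throughout. Other starts of these genes were not searched.
STAT2 (chr12:56360108-56360357, minus strand): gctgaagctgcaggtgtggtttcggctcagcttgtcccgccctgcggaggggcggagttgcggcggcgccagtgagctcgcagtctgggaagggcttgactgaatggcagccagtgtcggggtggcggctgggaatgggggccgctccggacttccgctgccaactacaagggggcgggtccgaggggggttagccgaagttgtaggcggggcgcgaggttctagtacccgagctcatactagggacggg
BATF2 (chr11:64990278-64990527, minus strand): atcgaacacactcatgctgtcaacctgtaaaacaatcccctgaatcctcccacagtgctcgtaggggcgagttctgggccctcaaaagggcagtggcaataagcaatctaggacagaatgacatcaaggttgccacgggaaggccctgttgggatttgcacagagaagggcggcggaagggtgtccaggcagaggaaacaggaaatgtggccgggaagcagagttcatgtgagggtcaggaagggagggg

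Matches could not be set against differences in OE33, because IRF9 and SOCS1 were under the filter there and IRF7 had no promoter entry. IRF1, the only kept gene with a match, had a ratio of 1.15 in OE33 (interval 1.07 to 1.24). STAT2 and BATF2, without a match, were past 2-fold, and BATF2 passed the filter only through siPPARG. A match is a run of letters, not a bound site, and no match says only that these letters are not in this window.

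**Figure D1:**
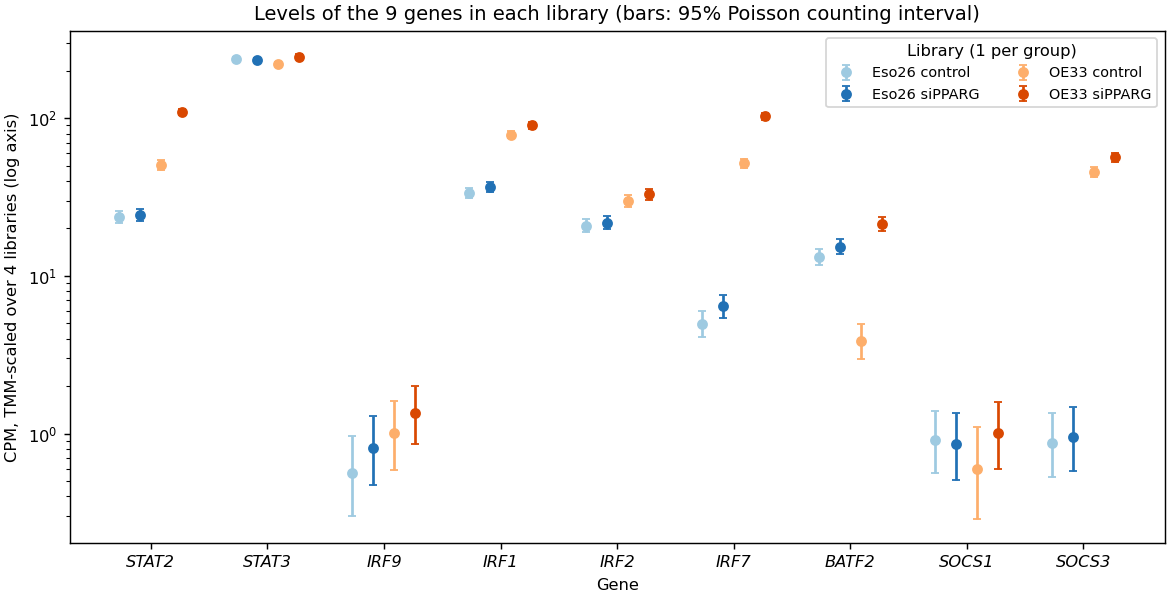
Level of each gene (CPM, TMM-scaled over 4 libraries, log axis) in the 4 libraries, with points for single libraries and bars for 95% Poisson counting intervals; levels are to be compared within a gene only. STAT2, IRF7 and BATF2 stand apart between the OE33 libraries, SOCS3 and IRF7 between the lines, and IRF9 and SOCS1 lie near 1 CPM in all 4.

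In OE33, STAT2, IRF7 and BATF2 were higher after siPPARG, and the other members differed by less than 1.5-fold or had too few counts to tell. Of the 9 members, 7 were kept in OE33. All 7 had ratios above 1, and 2 were past 2-fold (STAT2 and BATF2), where 1.06% of the 10527 genes kept were higher past 2-fold and 0.418% lower. Higher past 1.5-fold were 3 members (IRF7 in addition) and lower none, against 3.31% and 2.32% of genes. The median log2 fold of the 7 was 0.30, and that of all kept genes was 0. The counting interval lay above 1 for 6 of the 7, but at this depth it also did for 25.7% of all kept genes, and lay below 1 for 24.8%. BATF2 passed the filter only through siPPARG, so its count among the 7 is not support for a difference.

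In Eso26, none of the members was past 1.5-fold in either direction. Of the 9, 6 were kept, 5 of them higher and 1 lower in the library labelled siPPARG, where 51.0% of all kept genes were higher. Of 10449 kept genes, 0.067% were higher and 0.134% lower past 2-fold, and 1.36% and 1.04% past 1.5-fold, so few genes of any kind reached those sizes there. The median log2 fold of the 6 was 0.10, against 0.0045 over all kept genes. IRF7 had a counting interval above 1, as 25.4% of all kept genes did (27.8% lay below 1), and it passed the filter only through siPPARG.

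**Figure D2:**
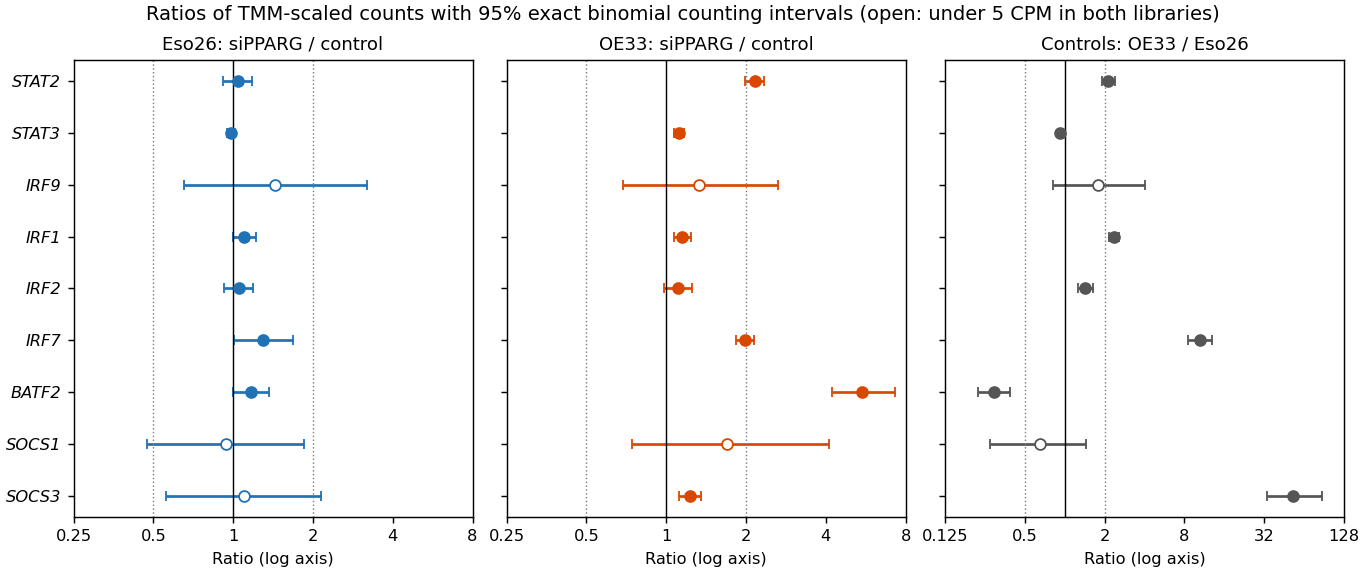
Ratio of siPPARG to control in each line and of the OE33 to the Eso26 control (log axes, dotted lines at 0.5 and 2) for the 9 genes, with 95% exact binomial counting intervals; open points mark genes under 5 CPM in both libraries. The Eso26 ratios of the kept genes lie between 0.981 and 1.30, those of OE33 between 1.10 and 5.49, and those of the controls between 0.293 and 52.6.

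STAT2 is the STAT protein particular to type I and type III interferon signals. Its counts were 544 and 516 in Eso26 control and siPPARG (23.7 and 24.5 CPM) and 849 and 1948 in OE33 (50.6 and 109 CPM). The Eso26 libraries had overlapping intervals, both OE33 libraries lay above them, and OE33 siPPARG stood alone at the top. The ratio of siPPARG to control was 2.16 in OE33 (interval 1.99 to 2.34) and 1.04 in Eso26 (interval 0.920 to 1.17). Of the genes kept in OE33, 99.2% had a lower log2 fold than STAT2. The log2 effect in OE33 was 1.05 above that in Eso26 (counting interval 0.84 to 1.26).

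IRF9 is the DNA-binding subunit of ISGF3, and its counts were too low to read a difference. It held 13 and 17 counts in the Eso26 control and siPPARG libraries and 17 and 24 in those of OE33. All 4 counting intervals overlapped. Its ratio was 1.33 in OE33 (interval 0.684 to 2.63) and 1.43 in Eso26 (interval 0.655 to 3.21), and the gene was under the filter in every comparison. The treatment of reads that lie on more than 1 gene model is not known.

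IRF1, the activator, and IRF2, its antagonist, differed little with siPPARG. IRF1 held 769 and 773 counts in Eso26 control and siPPARG (33.5 and 36.7 CPM) and 1319 and 1610 in OE33 (78.6 and 90.1 CPM). Its ratio was 1.15 in OE33 (interval 1.07 to 1.24) and 1.10 in Eso26 (interval 0.995 to 1.22). IRF2 held 479 and 458 counts in Eso26 (20.9 and 21.8 CPM) and 500 and 587 in OE33 (29.8 and 32.9 CPM). Its ratio was 1.10 in OE33 (interval 0.978 to 1.25) and 1.05 in Eso26 (interval 0.920 to 1.19), so no difference of IRF2 was detectable within either line. The difference of effect between the lines was within counting error for both genes, at 0.059 on the log2 scale for IRF1 (interval -0.12 to 0.24) and 0.075 for IRF2 (interval -0.18 to 0.33).

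IRF7, the inducible activator of interferon genes, was nearly 2-fold higher in OE33 siPPARG. It held 114 and 135 counts in Eso26 (4.97 and 6.41 CPM) and 871 and 1834 in OE33 (51.9 and 103 CPM). Both OE33 libraries lay far above both Eso26 libraries, and the OE33 intervals did not overlap. The ratio was 1.98 in OE33 (interval 1.83 to 2.15), just under the threshold with a log2 fold of 0.98, and 1.30 in Eso26 (interval 1.004 to 1.68). The log2 effect was 0.61 larger in OE33 (counting interval 0.23 to 0.99).

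BATF2 had the largest ratio among the members, and its order of levels set it apart from the others. It held 303 and 323 counts in Eso26 (13.2 and 15.3 CPM), 65 in the OE33 control (3.87 CPM) and 380 in OE33 siPPARG (21.3 CPM). The OE33 control was the lowest library and OE33 siPPARG the highest, with both Eso26 libraries between them and their intervals overlapping. The ratio was 5.49 in OE33 (interval 4.21 to 7.26) and 1.17 in Eso26 (interval 0.995 to 1.37).

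STAT3, the main transcription factor of IL-6 family cytokines, stood at a like level in all 4 libraries. It held 5485 and 4912 counts in Eso26 (239 and 233 CPM) and 3708 and 4398 in OE33 (221 and 246 CPM), the deepest counts among the members. The ratio was 1.12 in OE33 (interval 1.07 to 1.17) and 0.981 in Eso26 (interval 0.944 to 1.02). The log2 effect in OE33 was 0.18 above that in Eso26 (counting interval 0.10 to 0.27), a small difference beyond counting error. Without a scaling factor the Eso26 log2 fold turned from -0.027 to 0.0057.

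SOCS3, the feedback inhibitor that STAT3 induces, was 1.23-fold higher in OE33 siPPARG and at low counts in Eso26. It held 20 counts in each Eso26 library (0.872 and 0.950 CPM) and 770 and 1010 in OE33 (45.9 and 56.5 CPM). The interval of the OE33 ratio was 1.12 to 1.36. In Eso26 the ratio of 1.10 had an interval of 0.560 to 2.15, and the gene was under the filter.

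SOCS1, the feedback inhibitor of interferon receptors, was at low counts in every library. It held 21 and 18 counts in Eso26 and 10 and 18 in OE33, between 0.596 and 1.01 CPM, with 4 overlapping intervals. The OE33 ratio was 1.69 (interval 0.740 to 4.10), so neither no change nor a difference of the size seen for STAT2 lies outside the interval.

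Ratios of members within a library do not depend on the scaling of libraries, and they can be compared between libraries though not between gene pairs. STAT2 counts were 0.0992 and 0.105 times those of STAT3 in Eso26 control and siPPARG, 0.229 in the OE33 control (interval 0.212 to 0.247) and 0.443 in OE33 siPPARG (interval 0.420 to 0.467). The ratio of IRF1 to IRF2 was 1.61 and 1.69 in Eso26 and 2.64 and 2.74 in OE33, different between the lines and within counting error inside each. IRF7 to IRF1 was 0.148 and 0.175 in Eso26 and 0.660 and 1.14 in OE33 (OE33 intervals 0.606 to 0.720 and 1.07 to 1.22). BATF2 to IRF1 went from 0.0493 in the OE33 control to 0.236 in OE33 siPPARG, still below the 0.394 and 0.418 of the Eso26 libraries.

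**Figure D3:**
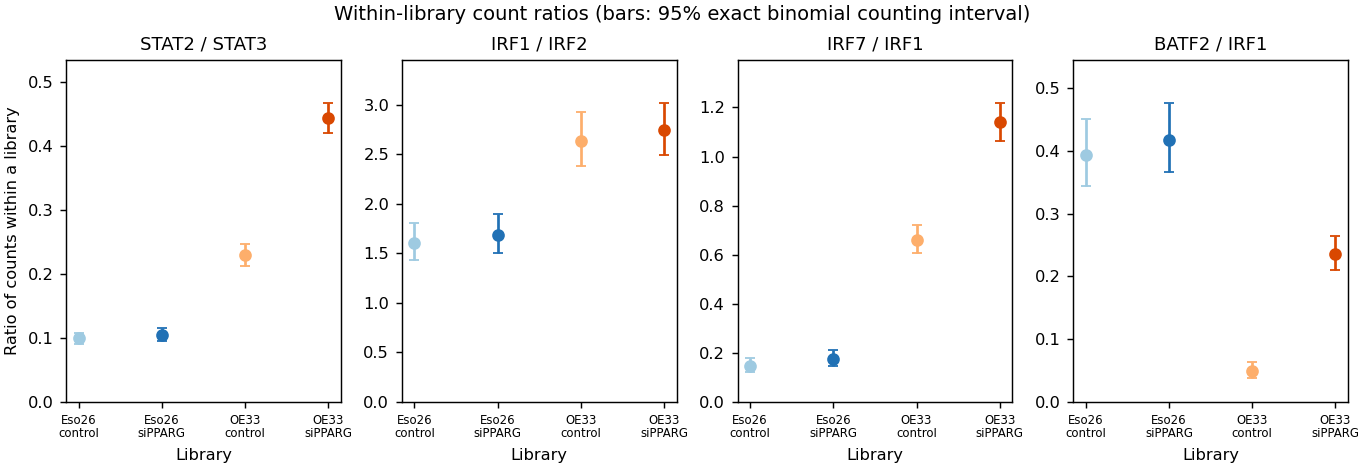
Counts of a member divided by those of another in the same library, for STAT2 to STAT3, IRF1 to IRF2, IRF7 to IRF1 and BATF2 to IRF1 (linear axes from 0, points for the 4 libraries, bars for 95% exact binomial counting intervals). The ratio of IRF1 to IRF2 differs between the lines and is within counting error inside each, at 1.61 and 1.69 in Eso26 against 2.64 and 2.74 in OE33, while the others also differ between the OE33 libraries.

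Between the controls of the lines, SOCS3 and IRF7 differed most among the members. Of the 9 members, 7 were kept in the comparison of the OE33 with the Eso26 control, 4 were higher past 2-fold in OE33 and 1 was lower, where 20.8% of 11200 kept genes were higher and 16.9% lower past 2-fold. The same 4 and 1 were past 1.5-fold, against 30.8% and 28.7% of genes, and the counting interval lay above 1 for 5 members and below 1 for 2, against 44.7% and 45.0%. SOCS3 was 52.6-fold higher in OE33 (interval 33.8 to 86.6), IRF7 10.4-fold (interval 8.58 to 12.8), IRF1 2.34-fold (interval 2.14 to 2.57) and STAT2 2.13-fold (interval 1.91 to 2.38). SOCS3 and IRF7 passed the filter only through OE33, and BATF2 only through Eso26. IRF2 was 1.43-fold higher (interval 1.26 to 1.62), STAT3 stood at 0.924 (interval 0.886 to 0.964) and BATF2 at 0.293 (interval 0.221 to 0.384). PPARG itself was 11.4-fold higher in the OE33 control (interval 10.0 to 13.0). The OE33 and Eso26 controls also serve in the siPPARG comparisons, so these values are not independent of those above.

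Over both treatments, the line difference can be tested, with the siPPARG effect as a term and 1 residual degree of freedom. By edgeR's quasi-likelihood test with Benjamini-Hochberg adjustment over 11387 genes, 36.2% of genes were higher and 35.8% lower in OE33 at an adjusted p under 0.05. Of the 7 members tested, 5 were higher in OE33. SOCS3 had a log2 difference of 5.80 (edgeR adjusted p = 5.66e-06), IRF7 of 3.70 (adjusted p = 2.29e-05), IRF1 of 1.26 (adjusted p = 0.000227), STAT2 of 1.63 (adjusted p = 0.00169) and IRF2 of 0.55 (adjusted p = 0.0114). For each of these, both OE33 libraries lay above both Eso26 libraries. SOCS3 entered the fit only through the OE33 libraries, where it is high, so it is not support for the count of 5. By edgeR STAT3, with a difference of -0.018 (adjusted p = 0.901), and BATF2, with -0.51 (adjusted p = 0.378), did not pass. For BATF2 the 2 treatments went opposite ways, lower in the OE33 control and higher in OE33 siPPARG than in the Eso26 library of the same treatment.

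An effect of siPPARG common to both lines was tested in the same fit. By edgeR, 0 of 11387 genes passed in either direction (0.0%), with 549 at an unadjusted p under 0.05; limma-voom called 0 with 652, and DESeq2 13 with 275. IRF7 had a common log2 effect of 0.74 and BATF2 of 1.22, each with an edgeR adjusted p of 0.948. Both had ratios above 1 in both lines, but the Eso26 interval of BATF2 includes no change, and IRF7 passed the filter in Eso26 only through siPPARG. Spread in this fit is what the lines do not share, and a gene that differed in OE33 only is therefore penalised. PPARG itself, with a common log2 effect of -1.67, also had an edgeR adjusted p of 0.948. Without the filter on low counts, edgeR tested 20401 genes and called 96, among them BATF2 (adjusted p = 0.0103) and IRF7 (adjusted p = 0.0244).

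The rest of the pathway was read in 12 lists of genes by role. The 9 interferon ligand genes read were close to silent, and IFNA1 was the only interferon alpha gene among them. Of the 9, 4 were at 0 in all libraries, and the highest count of any was 6 (IFNE in OE33 siPPARG). Their summed counts were 3 and 1 in Eso26 control and siPPARG and 6 and 12 in OE33. IFNB1 held 1 count in each OE33 library, and IFNL1 2 and 4. At this depth no difference in these ligand transcripts was detectable.

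All 6 interferon receptor genes were kept in both lines, and none was past 1.5-fold after siPPARG. In OE33 the subunits of the receptor for interferon gamma differed in direction: IFNGR1, which binds the ligand, went from 6764 to 8882 counts, a ratio of 1.23 (interval 1.20 to 1.27), and IFNGR2, the signalling chain, from 1893 to 1415, a ratio of 0.703 (interval 0.655 to 0.753). In Eso26 IFNGR1 stood at 0.794 (interval 0.747 to 0.843) and IL10RB, a chain shared with the receptor for interferon lambda, at 1.24 (interval 1.09 to 1.41). Between the controls, 5 of the 6 had a counting interval above 1 in OE33 (44.7% of all kept genes did) and 3 were higher past 2-fold (20.8% of all kept genes), with IFNGR1 at 3.62-fold. Of the JAK kinases 3 of 4 were kept, none past 1.5-fold after siPPARG. JAK1 stood at 0.884 in OE33 (interval 0.857 to 0.911) and 0.877 in Eso26 (interval 0.845 to 0.910), JAK2 at 1.15 and 1.08, and TYK2 at 1.03 and 1.15.

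Among the other STAT genes read in OE33, 1 of 4 kept was higher past 1.5-fold and none past 2-fold. Of all kept genes, 3.31% and 1.06% were higher past those sizes. The list median log2 fold was 0.30. STAT4 went from 86 to 144 counts in OE33, a ratio of 1.57 (interval 1.20 to 2.08), and held 1 and 2 counts in Eso26. STAT5A, which answers to prolactin and growth hormone among others, went from 201 to 283 counts in OE33, a ratio of 1.32 (interval 1.10 to 1.59), and stood at 1.13 in Eso26 (interval 0.952 to 1.35). STAT6, the factor of IL-4 signals, stood at 1.14 in OE33 (interval 1.08 to 1.21) and 1.06 in Eso26. Among the other IRF genes kept, 1 of 3 was higher in OE33 and 4 of 4 in Eso26. IRF5 was past 1.5-fold in Eso26, from 119 to 177 counts, a ratio of 1.63 (interval 1.29 to 2.07), and stood at 1.09 in OE33 (interval 0.940 to 1.27). IRF8, best known from blood cells, held 568 and 610 counts in Eso26 and 18 and 12 in OE33.

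The AP-1 proteins that pair with BATF family members were mixed. In OE33 JUN stood at 1.42 (interval 1.26 to 1.60), JUND at 1.39 (interval 1.25 to 1.56) and BATF at 1.38 (interval 1.09 to 1.76), while JUNB stood at 0.640 (interval 0.603 to 0.680). In Eso26 JUN stood at 1.17, JUND at 1.13 and JUNB at 0.858. The controls differed widely here too, with JUNB 11.6-fold higher and JUN at 0.162 in OE33 relative to Eso26.

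**Figure D4:**
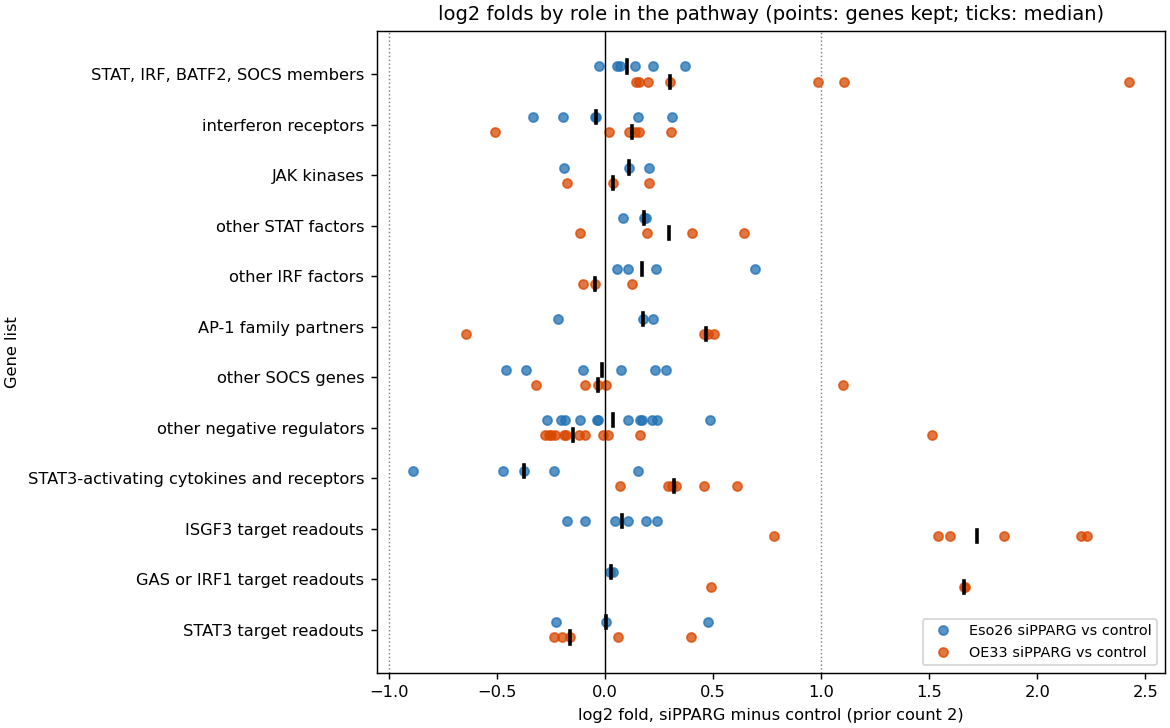
log2 fold of siPPARG minus control (prior count 2) for each kept gene by role, with Eso26 and OE33 as separate colours, black ticks for list medians and dotted lines at -1 and 1; interferon ligands had no kept gene. The OE33 medians are 1.72 for the ISGF3 target readouts and 1.66 for the GAS or IRF1 target readouts, against 0.077 and 0.029 in Eso26.

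Other inhibitors were mostly near their control level, with a single kept gene of each list higher past 2-fold in OE33 (1.06% of all kept genes were). CISH, a SOCS family gene, was under the filter in OE33, with 15 and 32 counts and a ratio of 2.005 (interval 1.055 to 3.98). SOCS2, which acts on growth hormone and STAT5 signals, went from 77 to 178 counts in OE33, a ratio of 2.17 (interval 1.65 to 2.88), and from 466 to 448 in Eso26, a ratio of 1.05. In OE33 it passed the filter only through siPPARG, so its place past 2-fold is not support for a difference. SOCS7 stood at 0.801 in OE33 (interval 0.765 to 0.839). In Eso26 SOCS6 stood at 0.726 (interval 0.664 to 0.794) and SOCS5 at 0.777 (interval 0.709 to 0.850). USP18, the protease that removes ISG15 and blocks the type I receptor, went from 437 to 1332 counts in OE33, a ratio of 2.87 (interval 2.57 to 3.20), and from 220 to 226 in Eso26. The other 11 negative regulators in OE33 were within 1.5-fold, and the median of the 12 was -0.15.

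Of the genes that activate STAT3, OSMR, IL6R and IL6ST lay above their control in OE33 and below it in Eso26, a contrast that was not tested, while STAT3 itself was within 1.5-fold in both. In OE33 the counting interval lay above 1 for 5 of the 6 kept cytokine and receptor genes (median log2 fold 0.32), and in Eso26 it lay below 1 for 4 of 5 (median -0.37), where 25.7% and 27.8% of all kept genes did. IL22RA1, a chain of the IL-22 receptor, stood at 1.11 in Eso26 and 1.05 in OE33, with both intervals including no change. OSMR, the oncostatin M receptor, went from 2910 to 4728 counts in OE33, a ratio of 1.53 (interval 1.46 to 1.60), and stood at 0.848 in Eso26. IL6R stood at 0.537 in Eso26 (interval 0.450 to 0.639) and 1.26 in OE33 (interval 1.03 to 1.54), and the shared chain IL6ST at 0.720 and 1.24. Of 5 kept STAT3 target readouts in OE33 none was past 1.5-fold. BCL2L1, a survival gene, stood at 1.32 (interval 1.27 to 1.36), and CEBPD and PIM1 at 0.848 and 0.872.

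The target readouts of ISGF3 were higher in OE33 in all 6 cases, 5 of them past 2-fold. Of all genes kept in OE33, 1.06% were higher past 2-fold. IFIT3 stood at 4.70 (interval 4.50 to 4.91), and the list median log2 fold was 1.72. In Eso26 none of the 6 was past 1.5-fold. The controls differed here too: all 6 were higher in the OE33 than in the Eso26 control, 5 of them past 2-fold (20.8% of all kept genes were). The median log2 fold between the controls was 2.43, with IFIT1 at 19.0-fold. Of 7 GAS or IRF1 target readouts 3 were kept in OE33, all higher and 2 past 2-fold. IDO1 went from 86 to 294 counts, a ratio of 3.21 (interval 2.52 to 4.14). GBP1 went from 318 to 1077, a ratio of 3.18 (interval 2.81 to 3.62). The counting interval in OE33 lay above 1 for all 6 ISGF3 readouts and for these 3. It did so for 25.7% of all kept genes. In Eso26, where GBP1 stood at 1.01 and GBP2 at 1.03, IDO1 was at 0 counts in both libraries, which allows up to 3 counts in each (a one-sided limit).

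For each kept member, the gene with the most similar profile was found by the Euclidean distance of log2 CPM over the 4 libraries, each centred on its mean, among 9582 genes kept in all 3 pairs. The nearest to STAT2 was SDCBP2 (distance 0.208), with 191 and 177 counts in Eso26 and 338 and 638 in OE33. UBA7 lay nearest to BATF2 (distance 0.377), with 174 and 213 counts in Eso26 and 42 and 181 in OE33, the same low OE33 control. NDRG1 lay nearest to IRF7 (distance 0.265). STAT3, IRF2 and IRF1 had close neighbours in ABL1 (0.0121), CC2D2A (0.0194) and HIP1R (0.0473). SOCS3 was under the filter in Eso26 and was not placed.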

How the data were processed

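Whole-number counts per gene were deposited by the authors, without normalization judging from the values. STAR, Bowtie, Picard, MACS2 and Trim Galore, and the build hg19, are listed in the submitters' processing notes with no role stated; counter, strand setting and annotation: not given in the sources used here. The PPARG peak lists were not used here, because they are on hg19 and no hg19 annotation was used. Each table has 37533 rows; 40 repeated identifiers were summed, and 37402 of 37493 matched the identifier-to-symbol table. Symbols are those of the tables.

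Scaling within each pair of libraries used TMM (edgeR 4.0.16 under R 4.3.3), and log2 folds used a prior count of 2. Ratios carry exact conditional binomial (Clopper-Pearson) and CPM values exact Poisson 95% intervals. With 1 library per group there is no test within a line; reads are not independent molecules, so intervals cover counting error only. The interval of the difference of effect between lines is a Wald interval on log counts. A model with line and treatment was fitted to the 4 libraries with edgeR's quasi-likelihood test (main), DESeq2 1.42.0 and limma 3.58.1 (voom), adjusted by Benjamini-Hochberg. The edgeR test was also run on simulated counts with no line difference and the same siPPARG change in both lines. The real libraries differ by line, so that run does not show how the test performs on them. The p-values of the model measure only the spread between these libraries. Alternatives were another scaling, filter, threshold, prior count and tool.

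The members, the lists and the tests were chosen with earlier results of these data known. Named genes are all members, PPARG, the nearest profile of each kept member, and genes picked from each list by a rule. The rule picked the 3 kept genes that differed most after siPPARG in either line and the 2 that differed most between controls. Not every gene picked by the rule is named. IFNE, IFNB1, IFNL1, IL22RA1, LIF, IFNAR1 and IRF2BP2 were named after their values were seen. A gene of the pathway is not reported here.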

Additional observations from a re-analysis of the deposited data

Results flagged for a closer look

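Among the members and the pathway genes that the naming rule picked, 6 had counting intervals clear of 1 on opposite sides in the 2 lines; none was a member. With 1 library per group the difference was not tested, and PPARG was not detectably lower in Eso26. IFNGR1 stood at 0.794 times its control in Eso26 and 1.23 in OE33. Of the STAT3-activating receptors, IL6R stood at 0.537 and 1.26, IL6ST at 0.720 and 1.24, and OSMR at 0.848 and 1.53. In the other direction, SOCS7 stood at 1.17 in Eso26 and 0.801 in OE33, and PIAS3, an inhibitor of STAT3, at 1.16 and 0.883. Intervals clear of 1 are common at this depth, as the 25.4% above and 27.8% below 1 in Eso26 and the 25.7% and 24.8% in OE33 show. The share of all kept genes with intervals on opposite sides was not computed. The rule picked genes for large differences, which favours such intervals, so the count of 6 is not a result about the pathway. LIF (0.771 in Eso26 and 1.23 in OE33), IFNAR1 (0.873 and 1.11) and IRF2BP2 (1.08 and 0.875), not picked by the rule, also had such intervals.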

How the results depend on the processing

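The counts of members past 2-fold and the medians stayed within 1.5 times, or within counting error, under other size factors, no scaling factor, other filters, the 1.5-fold threshold and a prior count of 0.5. The test of a common effect depended on tool and filter: edgeR called 0 genes, DESeq2 13, and edgeR without a filter on low counts 96, where BATF2 (adjusted p = 0.0103) and IRF7 (adjusted p = 0.0244) passed; the cause was not tested. Over the other settings the adjusted p of BATF2 in that test ran from 0.856 in limma-voom to 0.9999 in DESeq2. Of 81 log2 folds recomputed for the members, 1 changed sign, that of STAT3 in Eso26, from -0.027 to 0.0057 without a scaling factor. No analysis by replicate number was possible because the labels carry none and each group has 1 library; the fit with line as a term sets siPPARG against control within each line. No replicate could be left out for the same reason. Depth limits SOCS1 and IRF9 in all libraries and SOCS3 in Eso26, where the counts were 10 to 24.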

Other observations

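The chemokine genes CXCL10 and CXCL11, classical targets of interferon gamma, were under the expression filter and were picked out after their values were seen. CXCL10 held 32 counts in the Eso26 control and 12 in Eso26 siPPARG, a ratio of 0.411 (counting interval 0.193 to 0.820), and 0 and 1 in OE33. CXCL11 held 28 and 18 counts in Eso26, a ratio of 0.704 (interval 0.367 to 1.32), and 1 and 6 in OE33. In the OE33 libraries these chemokine transcripts were near 0 while GBP1 and IDO1 were at 1077 and 294 counts in OE33 siPPARG.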
